A study of Mus musculus with 6 samples.

Results

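The proteasome genes of mouse embryonic stem cells were described in cells with 3 genotypes of Thap1, which encodes a zinc-finger transcription factor. The genes were taken by name from a table of 19713 genes: every symbol starting with Psma to Psmg followed by a digit, and Pomp. Matching found 51 genes, and 51 of the 51 had a normalized count of 10 or more in at least 2 of the 6 libraries. Psmc3ip is among them by its symbol alone, since it encodes a cofactor of meiotic recombination and not a proteasome subunit. The other genes were sorted by role into 7 genes of the alpha ring, 4 structural and 3 catalytic genes of the beta ring, 5 immune or tissue-specific core genes, 6 ATPase genes and 3 non-ATPase genes of the regulator base, 8 genes of the regulator lid, 6 genes of alternative caps or an inhibitor, and 8 assembly chaperone genes. Psmb5, one of the catalytic genes, was examined beside the rest.

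RNA sequencing had been done on wild-type cells (WT), cells with the missense change C54Y on both Thap1 alleles (C54Y), and cells in which exon 2 of Thap1 was deleted (KO, labelled as THAP1-null), with 2 libraries per genotype numbered replicate 1 and replicate 2. Each line came from C57Bl/6 blastocysts and was kept on gelatin with irradiated embryonic fibroblast feeders, in serum and LIF at 1000 units per ml. The labels do not say whether the 2 libraries of a genotype came from separate cultures or clones, so p-values measure only the spread between these samples, which may be technical.

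The proteasome degrades proteins tagged with ubiquitin. Its barrel-shaped core is a stack of alpha and beta rings, and the proteolytic sites lie on beta subunits facing the inner chamber. A regulatory particle on the barrel end recognizes and unfolds substrates with ATPases in its base and removes ubiquitin with a lid enzyme. The transcription factor NRF1, encoded by Nfe2l1, is known to raise proteasome gene transcription through antioxidant response elements when proteasome activity falls. Cytokines such as interferon gamma can induce a set of alternative immune subunits.

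A value here is a normalized count, meaning the reads of a gene after division by the library's size factor. The 6 libraries held 31774656 to 46772996 reads. Thap1 itself was at 433 and 701 in WT replicates 1 and 2, 2253 and 2533 in C54Y, and 1975 and 1687 in KO. This whole-gene value tests neither the missense change nor the loss of exon 2. Summed embryonic stem cell markers (8 of 8 present in every library) were at 143364 and 324471 in WT, 170405 and 392935 in the C54Y libraries, and 269223 and 482839 in KO. All 6 extraembryonic endoderm markers fell in both mutants by limma (0.399% of all tested genes were called lower in C54Y and 7.41% in KO). Their sums went from 3520 and 2682 in WT to 813 and 726 in C54Y and 468 and 379 in KO. The part of these cell-marker shifts in the results on proteasome genes was not tested. In these bulk samples, fewer cells of a type and less RNA per cell cannot be told apart.

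Promoter sequence is given for a pair of constitutive catalytic genes and a pair of immune catalytic genes, because the results that follow turn on them. The lines hold the 250 bases before the annotated start, 5′ to 3′ on the gene's own strand, from RefSeq on build GRCm38.p6. They cover chr14:54617996-54618245 (minus strand, Psmb5), chr11:70525107-70525356 (plus strand, Psmb6), chr17:34197945-34198194 (plus strand, Psmb8) and chr17:34187331-34187580 (minus strand, Psmb9). Capitals mark matches on either strand to TNNNGGCA, the recognition consensus of THAP1, or to TGACNNNGC, the core of the antioxidant response element.
Psmb5: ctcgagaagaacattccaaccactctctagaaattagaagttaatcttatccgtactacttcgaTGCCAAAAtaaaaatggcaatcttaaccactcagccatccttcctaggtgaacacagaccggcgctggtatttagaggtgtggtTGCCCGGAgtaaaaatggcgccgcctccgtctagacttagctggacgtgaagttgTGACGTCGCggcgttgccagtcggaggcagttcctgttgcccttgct
Psmb6: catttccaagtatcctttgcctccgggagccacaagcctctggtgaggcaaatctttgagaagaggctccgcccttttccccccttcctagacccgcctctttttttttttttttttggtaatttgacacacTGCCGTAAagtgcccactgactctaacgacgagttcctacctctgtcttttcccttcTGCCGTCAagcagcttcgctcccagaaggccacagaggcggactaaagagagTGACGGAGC
Psmb8: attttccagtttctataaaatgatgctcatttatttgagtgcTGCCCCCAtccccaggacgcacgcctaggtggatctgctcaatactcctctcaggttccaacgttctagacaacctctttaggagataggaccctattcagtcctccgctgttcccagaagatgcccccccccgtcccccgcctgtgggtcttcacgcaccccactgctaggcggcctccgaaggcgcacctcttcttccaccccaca
Psmb9: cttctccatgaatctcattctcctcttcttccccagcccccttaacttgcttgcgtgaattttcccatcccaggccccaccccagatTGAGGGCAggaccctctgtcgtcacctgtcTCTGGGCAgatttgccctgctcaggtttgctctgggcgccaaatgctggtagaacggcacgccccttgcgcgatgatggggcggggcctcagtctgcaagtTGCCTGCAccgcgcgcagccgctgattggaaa
The stretch before Psmb5 held 2 matches to the THAP1 consensus, starting 186 and 102 bases before the start, and 1 response element core starting 47 bases before it. The printed stretch before Psmb6 also held 2 THAP1 matches and 1 response element core, and a further THAP1 match lay just past its start. Psmb8 held 1 THAP1 match and Psmb9 held 3, with no response element core in either printed stretch. In windows of 300 bases that reach 50 bases past the start, 22 of 46 proteasome windows held the THAP1 consensus (47.8%), beside 42.0% of 32851 windows in the whole table. The response element core was in 6 of 46 proteasome windows (13%), beside 12.4% of all windows. These windows stand for the 43 of 51 genes that the table matched. A match is a description of letters and not of binding.

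Psmb5, the catalytic subunit with chymotrypsin-like activity and the main target of the inhibitor bortezomib, fell in both mutants when each was compared with WT of the same replicate number. Its normalized count was 3961 in WT replicate 1 and 11337 in WT replicate 2. C54Y gave 2130 and 6709, and KO gave 2832 and 8415. Replicate 2 was higher than replicate 1 in each genotype, so the genotypes overlap when the numbers are ignored, but both mutant libraries lay below the WT library of their own number. In C54Y, Psmb5 fell by 43.6%, a log2 fold change of −0.83 ± 0.13 (SE) with values of −0.89 and −0.76 in replicates 1 and 2 (limma with replicate number as a block, Benjamini-Hochberg adjusted p = 0.0216). In KO it fell by 27.1%, a log2 fold change of −0.46 ± 0.13 with values of −0.48 and −0.43 (limma, adjusted p = 0.0473). The mutants share their WT libraries. Compared with each other, KO was above C54Y by 0.37 on the log2 scale, with a 95% interval of 0.07 to 0.67 before adjustment, and this did not pass (limma, adjusted p = 0.24).

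The Psmb5 results rest on the pairing by replicate number: without the block, limma gave adjusted p = 1 for C54Y and 0.9999 for KO. The C54Y call was also lost without WT replicate 2 (limma, adjusted p = 0.0628), C54Y replicate 1 (0.162) or C54Y replicate 2 (0.326), and the KO call without either WT library (0.287 without replicate 1 and 0.211 without replicate 2) or either C54Y library (0.127 and 0.16). With the block kept, the KO call was also lost by DESeq2 (adjusted p = 0.0525), by limma with no filter on low values (0.0591) and by limma on the WT and KO libraries alone (0.137). The C54Y call stayed, with the block, by edgeR (adjusted p = 0.0194), DESeq2 (0.000247) and limma on the WT and C54Y libraries alone (2.19e-06).

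**Figure D1:**
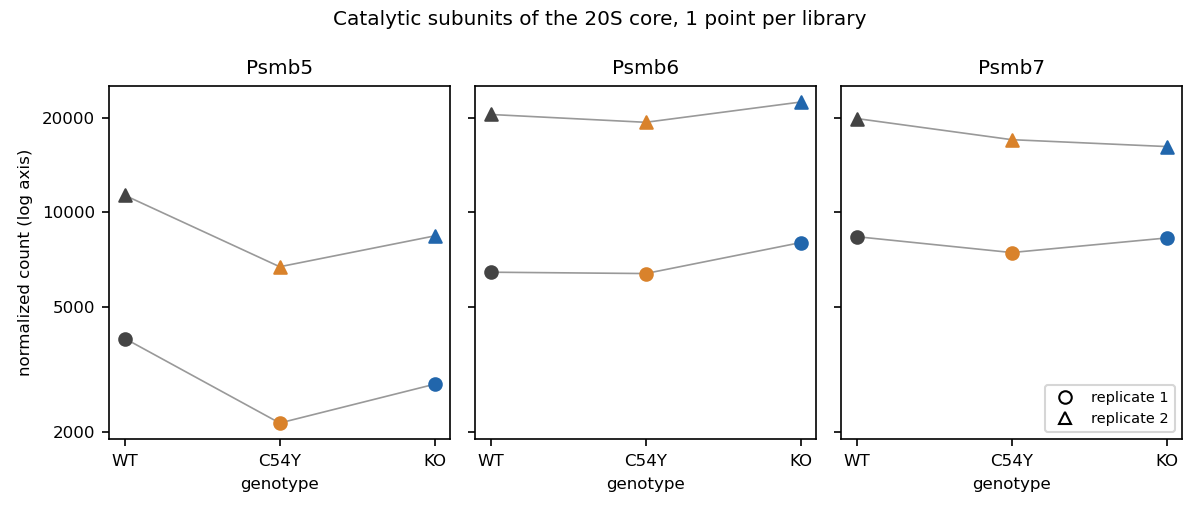
Normalized counts (log axis) of the catalytic genes Psmb5, Psmb6 and Psmb7 in each library, with lines joining libraries of the same replicate number. Psmb5 lies lower in C54Y (2130 and 6709) and KO (2832 and 8415) than in WT (3961 and 11337) within each number, and replicate 2 lies above replicate 1 throughout.

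Psmb6, the catalytic subunit with caspase-like activity, was at 6447 and 20528 in WT, 6383 and 19382 in the C54Y libraries, and 8011 and 22490 in KO. Its log2 fold changes were −0.05 in C54Y (limma, adjusted p = 0.937) and 0.22 in KO (0.252). Psmb7, the subunit with trypsin-like activity, was at 8368 and 19925 in WT, 7448 and 17061 in the C54Y libraries, and 8289 and 16221 in KO. Its log2 fold changes were −0.20 in C54Y (limma, adjusted p = 0.635) and −0.16 in KO (0.455). Neither of these catalytic genes passed the test in either mutant.

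The amount of Psmb5 per Psmb6 was 0.614 and 0.552 in the WT libraries, 0.334 and 0.346 in C54Y, and 0.354 and 0.374 in KO. These ratios of normalized counts are free of library scaling, and the 4 mutant libraries lay below both WT libraries. Per Psmb7, Psmb5 stood at 0.473 and 0.569 in WT, 0.286 and 0.393 in the C54Y libraries, and 0.342 and 0.519 in KO. Here both C54Y libraries lay below WT, while KO replicate 2 lay between the WT libraries. The ratios were not tested on their own.

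Set against the geometric mean of the 13 other constitutive core genes in the same library, Psmb5 stood at 62.5% and 81.9% in WT. The shares were 36.5% and 54% in C54Y and 36.8% and 66.1% in KO. Both C54Y libraries lay below both WT libraries, and KO replicate 2 lay between them. A limma fit across all genes, with each library centred on those 13 genes, gave Psmb5 a log2 fold change of −0.69 ± 0.17 in C54Y (adjusted p = 0.152) and −0.54 ± 0.17 in KO (0.1). Neither passed the threshold of 0.05, so Psmb5 was not shown to differ from the rest of the core by this test. The other 13 genes lay between −0.06 and 0.09 in C54Y and between −0.35 and 0.19 in KO on the same centred scale.

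These relative results depended on single libraries. Without KO replicate 1, the centred limma fit gave −0.69 in C54Y and −0.35 in KO. Without KO replicate 2, it gave −0.69 in C54Y and −0.72 in KO. Without WT replicate 1 it gave −0.53 in C54Y and −0.38 in KO, and without WT replicate 2 −0.85 and −0.69. Centring on the median of the 13 genes instead of the mean gave −0.69 in C54Y (limma, adjusted p = 0.0613) and −0.63 in KO (0.0237). Fitting only the 2 genotypes compared, with the block, gave −0.69 in C54Y (limma, adjusted p = 0.000141), which passed. The same fit gave −0.54 in KO (limma, adjusted p = 0.186), which did not. Without the replicate block neither passed.

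**Figure D2:**
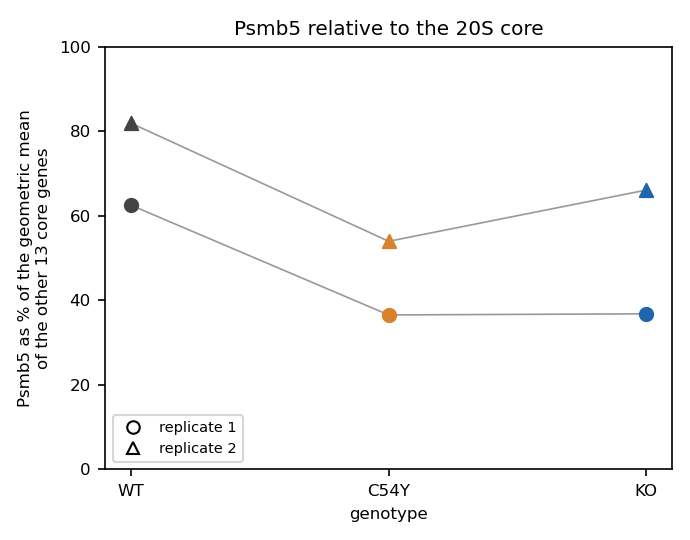
Psmb5 as a percentage of the geometric mean of the 13 other constitutive core genes, per library. WT lies at 62.5% and 81.9%, C54Y at 36.5% and 54%, and KO at 36.8% and 66.1%.

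Psmb5 had the lowest fold change of the 31 constitutive core and regulator genes in each mutant. Over all 15287 tested genes, 474 had a lower log2 fold change than Psmb5 in C54Y and 2942 did in KO. The level of Psmb5 relative to other subunits depends on the gene length used. Per kilobase of all annotated exons together, its WT mean was 8508 normalized counts, above Psmb4 at 8010 and Psmb6 at 7205. Per kilobase of the longest coding transcript it was again 8508 and took place 7 of the 51 genes from the top, below Psmb6 at 16901, Psmb3 at 16375 and Psmb4 at 13210.

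Part of the Psmb5 transcript is not unique. Of all stretches of 50 bases in its longest annotated coding transcript, 57.1% also occur in another annotated gene, chiefly Gm3375 with 49.4%. None of the 3 genes that share sequence with Psmb5 has a row in the table (0 of 3), and how reads that map to several places were counted is not given in the sources used here. The Psmb5 value is uncertain to that extent. Of the 51 genes, 23 share no such stretch with another gene and 5 share over 50% of theirs.

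Genes next to Psmb5 on chromosome 14, by their order in GRCm38.p6, did not all move with it. Of the 5 nearest tested genes on either side, log2 fold changes ran from −0.42 to 0.16 in C54Y, with 0 of 10 past the limma threshold (1.36% of all tested genes) and 1 at an unadjusted p under 0.05 (12.3%). In KO they ran from −2.01 (Rem2, limma adjusted p = 0.00379) to 0.47 (Prmt5, adjusted p = 0.0305), and 2 of 10 passed (16.3% of all tested genes).

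In C54Y, Psmb5 was the only 1 of the 51 proteasome genes to pass the limma test (1.96%, against 1.36% of all tested genes, and 0.399% in the lower direction). At an unadjusted p under 0.05 there were 3 of 51 (5.88%, against 12.3%). No other gene passed, and the other log2 fold changes ran from −0.59 (Psmb9, limma adjusted p = 0.485) to 0.58 (Psma8, 0.349). Of the 51 genes, 30 lay below WT in both replicate numbers (58.8%, against 32.6% of all tested genes) and 12 lay above in both (23.5%, against 33.5%). The median log2 fold change was −0.09 over the 51 genes and −0.00 over all tested genes, and 0.016 over the 51 genes without WT replicate 2. Without KO replicate 1 the limma fit called 4 of the 51 genes in C54Y (Psmb5 and Psmd14 lower, Psma8 and Psmd7 higher), and without KO replicate 2 it called 3 of these (Psmb5, Psma8 and Psmd7). In these fits 11.9% and 10.6% of all tested genes were called.

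The alpha ring forms the outer rings and the gate of the barrel. Its 7 genes had C54Y log2 fold changes from −0.19 (Psma7, limma adjusted p = 0.638) to −0.10 (Psma1, 0.879). Of these, 7 of 7 lay below WT in both replicate numbers, against 32.6% of all tested genes. The structural beta genes lie in the inner rings without a proteolytic site, and 4 of 4 lay below WT in both (against the same 32.6%). Their C54Y values ran from −0.18 (Psmb1, limma adjusted p = 0.72) to −0.10 (Psmb2, 0.865). Together, the 13 core genes other than Psmb5 lay between −0.20 and −0.05 in C54Y with a median of −0.14. None passed the limma test (0 of 13, against 1.36% of all tested genes), and 0 were at an unadjusted p under 0.05 (12.3%). With the block, edgeR and DESeq2 also called 0 of the 13 (1.3% and 3.13% of all tested genes). The values of these 13 genes are therefore given as levels and not as a change.

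In KO, 5 of the 51 genes passed the limma test (9.8%, against 16.3% of all tested genes). Psma8 and Psmd3 rose, 2 genes (8.9% of all tested genes were called higher), and Psmb5, Psmb8 and Psmb9 fell, 3 genes (7.41% called lower). At an unadjusted p under 0.05 there were 11 of 51 (21.6%, against 31.1%). The difference between these shares was not tested. Without the block, limma, edgeR and DESeq2 each called 0 of the 51 genes in either mutant. Over all tested genes, limma and edgeR called 0 there, and DESeq2 called 1.54% in KO and 0.183% in C54Y. The unblocked limma fit had 2 of the 51 at an unadjusted p under 0.05 in KO (6.86% of all tested genes) and 0 in C54Y (1.65%).

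The constitutive genes of KO split by replicate number. Of the 51 genes, 19 lay above WT in both numbers (37.3%, against 36.1% of all tested genes) and 10 below in both (19.6%, against 29.5%). The median log2 fold change was 0.12, beside 0.03 over all tested genes, and it was −0.014 without WT replicate 1 and −0.05 without KO replicate 1. In replicate 1, 28 of the 31 core and regulator genes lay above WT, with a median log2 fold change of 0.31, beside 59.0% above and a median of 0.12 over all tested genes. In replicate 2, 11 of the 31 lay above WT, with a median of −0.07, beside 47.6% above and a median of −0.02 over all tested genes. All 7 alpha genes showed values below WT in replicate 2, while 6 of 7 lay above it in replicate 1. With 1 library per genotype and number, the difference between the replicates was not tested.

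Alpha ring values in KO ran from −0.27 (Psma7, limma adjusted p = 0.191) to 0.17 (Psma1, 0.503). Those of the structural beta genes ran from −0.02 (Psmb1, adjusted p = 0.955) to 0.27 (Psmb2, 0.21). Leaving out a KO library changed the count of called genes from 5 to 10 (without replicate 1) or to 24 (without replicate 2, with 19 higher and 5 lower), while the share of all tested genes called went to 26.4% and 31.8%. It was 3 without WT replicate 1 (12.2% of all tested genes) and 2 without WT replicate 2 (11.4%). The number of genes called therefore rests on which libraries are used.

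**Figure D3:**
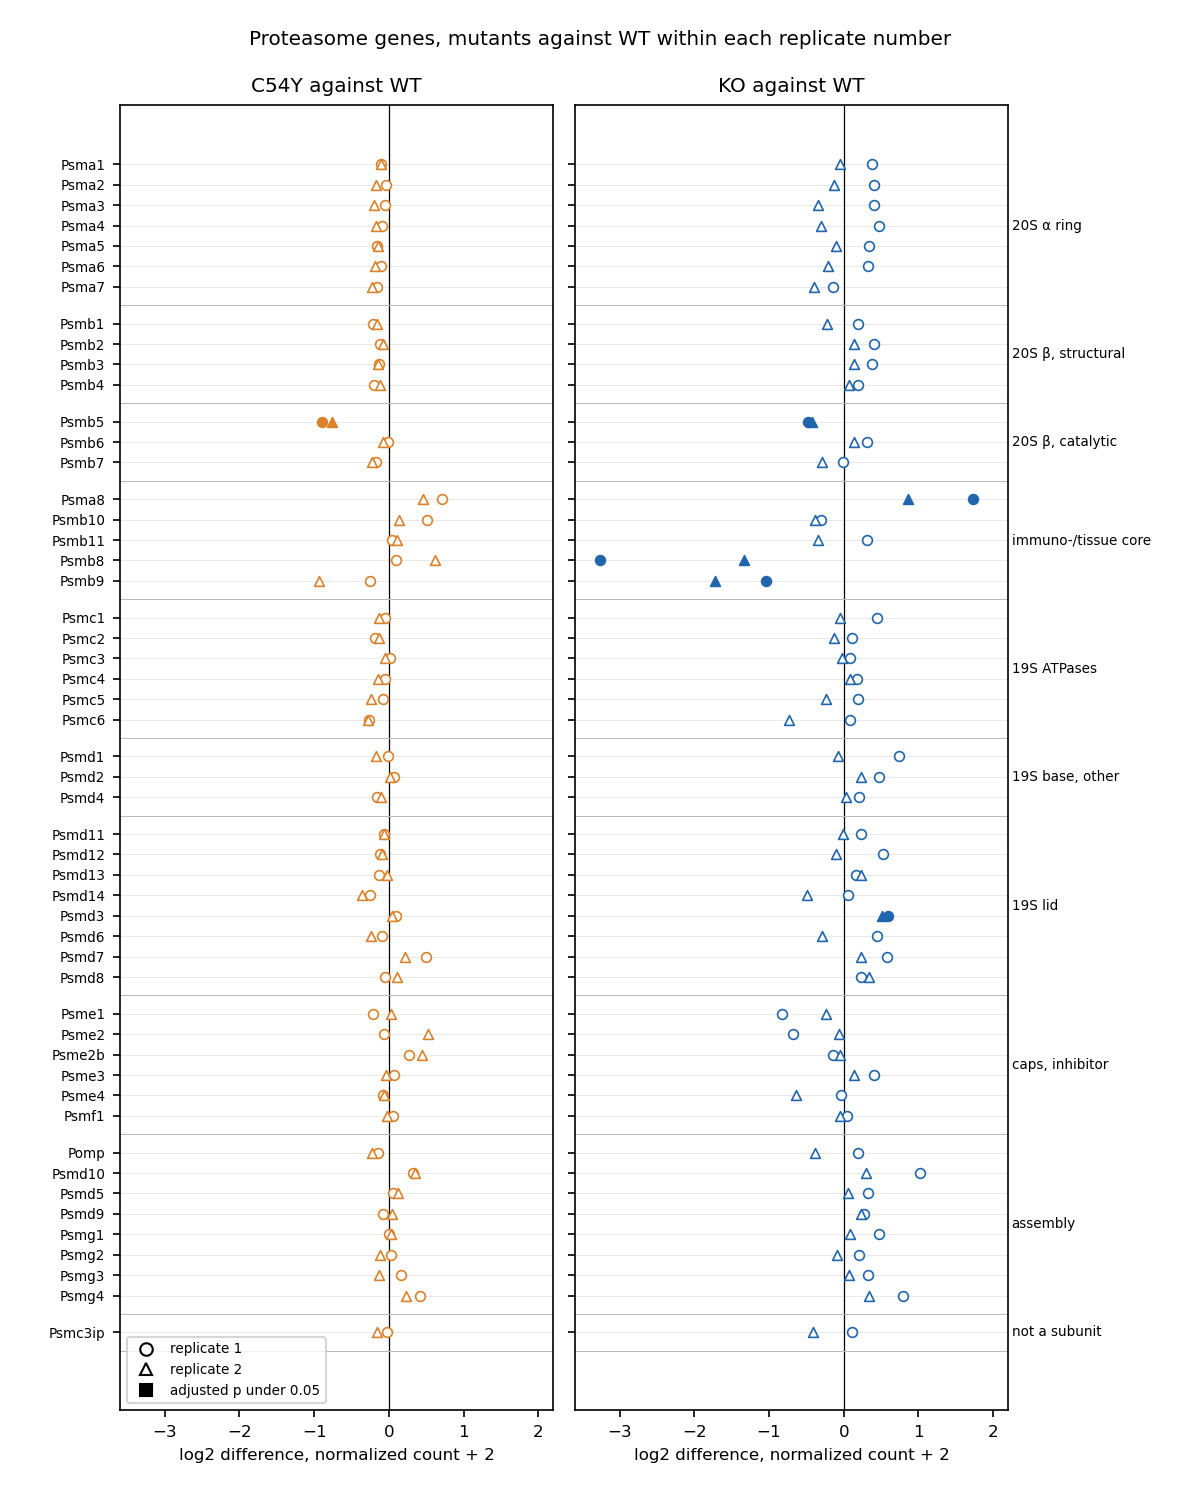
Log2 fold changes of the 51 genes against WT of the same replicate number, by role, for C54Y and KO, with circles for replicate 1, triangles for replicate 2 and filled symbols for a limma adjusted p under 0.05. Psmb5 is the lowest constitutive gene in both mutants (−0.83 and −0.46), and the alpha genes lie above WT in KO replicate 1 (6 of 7) and below it in KO replicate 2 (7 of 7).

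Psmd3, a lid scaffold subunit, was the only 1 of the 17 regulator genes to pass the test in either mutant. The shares of all tested genes that passed were 16.3% in KO and 1.36% in C54Y. Psmd3 was at 7121 and 17258 in WT, 7612 and 17745 in the C54Y libraries, and 10710 and 24716 in KO. Both KO libraries lay above the WT and C54Y libraries of their own number. Psmd3 rose in KO by 0.55 ± 0.12 on the log2 scale, with values of 0.59 and 0.52 in the replicates (limma, adjusted p = 0.0147). In C54Y its log2 fold change was 0.07 (limma, adjusted p = 0.896). Psmd3 no longer passed in KO without WT replicate 1 (limma, adjusted p = 0.0586), without WT replicate 2 (0.0595) or without the block (0.9999).

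Psmd7, which pairs with the deubiquitinating subunit Psmd14 in the lid, was at 6716 and 13152 in WT, 9454 and 15252 in the C54Y libraries, and 10051 and 15415 in KO. It lay above WT in both numbers of both mutants, with log2 fold changes of 0.35 in C54Y (limma, adjusted p = 0.314) and 0.41 in KO (0.0733), and passed in neither. Psmd14 had the lowest lid value in each mutant, −0.31 in C54Y (limma, adjusted p = 0.514) and −0.22 in KO (0.394). The lid genes had medians of −0.07 in C54Y and 0.20 in KO.

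The ATPases of the base form the ring that unfolds substrates, and their medians were −0.13 in C54Y and 0.01 in KO. Psmc6 had the lowest values of the 6, at −0.28 in C54Y (limma, adjusted p = 0.704) and −0.32 in KO (0.339), and Psmc3 had the highest in C54Y at −0.02 (0.972) and Psmc1 the highest in KO at 0.20 (0.4). Of the base genes without ATPase activity, the ubiquitin receptor gene Psmd4 had the lowest value in C54Y at −0.13 (limma, adjusted p = 0.783) and in KO at 0.12 (0.574). The scaffold gene Psmd2 had the highest, 0.04 in C54Y (limma, adjusted p = 0.944) and 0.35 in KO (0.0738). No base gene passed in either mutant by limma (0 of 9, against 16.3% of all tested genes in KO and 1.36% in C54Y). Of them, 1 (Psmd2) was at an unadjusted p under 0.05 in KO (31.1% of all tested genes).

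Immune core subunits replace their constitutive partners and alter the peptides that the proteasome releases for display by MHC class I. Psmb8, the counterpart of Psmb5, was at 91.9 and 105.5 in WT, 97.9 and 162 in the C54Y libraries, and 7.82 and 40.7 in KO. The KO values stand for 9 and 32 reads, and both KO libraries lay below all 4 others. In KO, Psmb8 fell by 79.6%, a log2 fold change of −2.29 ± 0.45 with values of −3.26 and −1.33 (limma, adjusted p = 0.0105), on a log2 scale with 2 added to each value, which understates the change of low genes. Its log2 fold change in C54Y was 0.35 (limma, adjusted p = 0.854), and KO against C54Y gave −2.65 (0.0586), so the difference between the mutants did not pass.

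Psmb9, the counterpart of Psmb6, was at 93.4 and 239 in WT, 78.2 and 125 in the C54Y libraries, and 44.3 and 71.3 in KO. Both KO libraries lay below all 4 others. In KO, Psmb9 fell by 61.6%, a log2 fold change of −1.38 ± 0.30 with values of −1.04 and −1.72 (limma, adjusted p = 0.0163), and the call was lost without WT replicate 2 (0.146). In C54Y the log2 fold change was −0.59 (limma, adjusted p = 0.485), and KO against C54Y gave −0.79 (0.261). Psmb8 and Psmb9 also kept no call without the block, with limma adjusted p = 0.662 and 0.841.

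Psmb10, the counterpart of Psmb7, was at 582 and 2553 in WT, 833 and 2811 in the C54Y libraries, and 469 and 1960 in KO. Its log2 fold changes were 0.33 in C54Y (limma, adjusted p = 0.489) and −0.35 in KO (0.198), and neither passed. Per kilobase of all annotated exons, the WT means of Psmb8, Psmb9 and Psmb10 were 29.2, 45.5 and 919 normalized counts, beside 8508, 7205 and 4135 for their counterparts Psmb5, Psmb6 and Psmb7. On this scale each immune gene lay below its counterpart.

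Summed feeder fibroblast markers (13 genes, Lum at 0 in 5 of 6 libraries) were at 4604 and 14999 in WT, 4488 and 17063 in the C54Y libraries, and 2147 and 15770 in KO. The KO sum was below WT in replicate 1 and above it in replicate 2. Col1a1 and Col1a2 make up most of the sum. Of the 12 tested markers, 7 were lower in KO in both numbers (29.5% of all tested genes were). Mmp2 fell by limma (adjusted p = 0.0283, with 7.41% of all tested genes called lower). Summed blood and immune cell markers (5 genes, Ptprc at 0 in 3 libraries) were at 114 and 579 in WT, 157 and 716 in the C54Y libraries, and 205 and 811 in KO, which is higher in KO in both numbers. The part of feeder or immune cells in the Psmb8 and Psmb9 results was not tested.

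**Figure D4:**
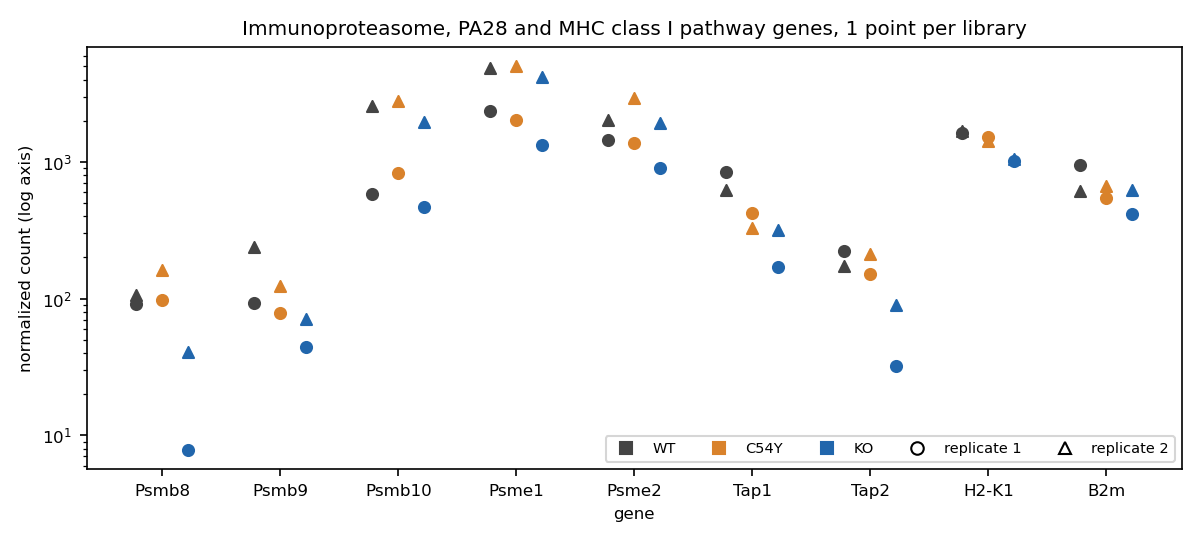
Normalized counts (log axis) of immune core genes, the PA28 cap genes Psme1 and Psme2 and the MHC class I pathway genes Tap1, Tap2, H2-K1 and B2m, with 1 point per library, coloured by genotype and shaped by replicate number. Psmb8 (7.82 and 40.7) and Psmb9 (44.3 and 71.3) lie lower in KO than in all WT and C54Y libraries.

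Some, but not all, of the genes for the loading and display of peptides on MHC class I also fell in KO. Of 13 tested genes in a list of MHC class I and interferon response genes, 4 fell and 0 rose in KO by limma, with a median log2 fold change of −0.47, beside 7.41% of all tested genes called lower. The peptide transporter gene Tap1 was at 840 and 624 in WT, 422 and 331 in the C54Y libraries, and 171 and 318 in KO, and in KO it fell by 1.62 ± 0.32 on the log2 scale (limma, adjusted p = 0.0105). Its partner Tap2 fell by 1.84 (limma, adjusted p = 0.0154), the class I heavy chain gene H2-K1 by 0.67 (0.0197) and the peptide-trimming enzyme gene Erap1 by 1.04 (0.0325). Tapbp at −0.12 (limma, adjusted p = 0.794), B2m at −0.59 (0.181) and H2-D1 at −0.40 (0.36) did not pass. Tapbp and B2m lay below WT in KO replicate 1 and above it in replicate 2. Of the 13 genes, 8 lay below WT in both numbers (29.5% of all tested genes). In C54Y, 0 of the 13 passed by limma (1.36% of all tested genes), with 1 at an unadjusted p under 0.05 (12.3%). The C54Y median was −0.07. Psmb9 and Tap1 share 12.5% of the stretches of 50 bases in the Psmb9 transcript, so reads of these neighbours can be hard to assign.

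Psma8 encodes an alpha subunit known from the testis. It was at 300 and 467 in WT, 492 and 643 in the C54Y libraries, and 1005 and 848 in KO. Both KO libraries lay above all 4 others, and both C54Y libraries lay above both WT libraries. Psma8 rose in KO by 1.30 ± 0.23 on the log2 scale, with values of 1.74 and 0.86 in the replicates (limma, adjusted p = 0.00793), and lost the call without the block (0.624). In C54Y its log2 fold change was 0.58 (limma, adjusted p = 0.349), and KO against C54Y gave 0.71 (0.208). Psmb11, the thymus subunit, stayed low at 12.7 to 51.3 normalized counts in the 6 libraries.

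Libraries of KO and WT did not overlap in 5 of the 51 genes. Psma8, Psmd10 and Psmd5 lay higher in both KO libraries (3 genes, 5.88%, against 13.6% of all tested genes), and Psmb8 and Psmb9 lay lower (2 genes, 3.92%, against 13.6%). For C54Y, Psma8 lay higher (1 gene, against 9.3% of all tested genes) and Psmd6 lower (1 gene, against 8.69%). Compared with each other, KO and C54Y differed in 0 of the 51 genes by limma (0.19% of all tested genes), with 13 at an unadjusted p under 0.05 (25.5%, against 15.4%), while DESeq2 with the block called 2 (Psmb8 and Psmb10) and edgeR with the block 0. The DESeq2 count goes with 2.96% of all tested genes. Leaving out a library gave 3 called genes (WT replicate 1, 5.4% of all tested genes), 1 (WT replicate 2, 3.35%), 1 (C54Y replicate 2, 0.523%), 4 (KO replicate 1, 5.97%) or 23 (KO replicate 2, 18.5%). KO lay above C54Y in both replicate numbers for 26 of the 51 (51%, against 33.3% of all tested genes) and below it for 7 (13.7%, against 25.7%).

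Alternative caps open the barrel without ATP. Psme1, a subunit of the PA28 cap with Psme2, was at 2357 and 4912 in WT, 2039 and 5023 in the C54Y libraries, and 1325 and 4153 in KO. Its log2 fold change in KO was −0.54 with values of −0.83 and −0.24 (limma, adjusted p = 0.0634), and edgeR and DESeq2 with the block called it lower. For Psme2 the KO value was −0.37 (limma, adjusted p = 0.216), but 59.3% of its stretches of 50 bases occur in another gene, Psme2b among them, so the pair is uncertain. Psme3, which forms the nuclear cap, had the highest KO value of this group at 0.27 (limma, adjusted p = 0.19). In C54Y the group ran from −0.09 (Psme1, limma adjusted p = 0.909) to 0.35 (Psme2b, 0.674). None of the 6 cap and inhibitor genes passed by limma in either mutant (16.3% of all tested genes in KO and 1.36% in C54Y). In KO, 1 of the 6 was at an unadjusted p under 0.05 (31.1% of all tested genes).

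Assembly chaperones guide subunits into the core or the base and are not part of the finished particle. Pomp, which helps the core rings mature, was at 3878 and 9444 in WT, 3491 and 8101 in the C54Y libraries, and 4431 and 7268 in KO. Its log2 fold changes were −0.19 in C54Y (limma, adjusted p = 0.758) and −0.09 in KO (0.749), the lowest of the 8 chaperone genes in each mutant. Psmd10, an X-linked base chaperone gene, had the highest values, 0.33 in C54Y (limma, adjusted p = 0.632) and 0.65 in KO (0.0738). Psmg4, a chaperone of the alpha ring, followed in KO at 0.56 (limma, adjusted p = 0.0711). None of the 8 passed by limma in either mutant (16.3% of all tested genes in KO and 1.36% in C54Y). In KO, 2 of the 8 were at an unadjusted p under 0.05 (31.1% of all tested genes). DESeq2 with the block called Psmd10 higher in KO.

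Levels of most proteasome genes differed by replicate number in the 3 genotypes. Replicate 2 lay above replicate 1 in all 3 genotypes for 39 of the 51 genes (76.5%, against 39.6% of all tested genes), and by over 2-fold for 19 (37.3%, against 8.52%). The median log2 difference was 0.96 over the 51 genes and 0.01 over all tested genes. Psmb5 was 2.86, 3.15 and 2.97 times as high in replicate 2 as in replicate 1 in WT, C54Y and KO. This difference exceeded the change of Psmb5 in either mutant.

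3 genes went the other way by over 2-fold in each genotype (5.88%, against 17.2% of all tested genes): Psme4, Psmc6 and Psmb11. Psme4, which encodes the PA200 cap, was at 13409 and 2498 in WT, 12676 and 2386 in the C54Y libraries, and 13117 and 1608 in KO. Psmc6, an ATPase gene of the same base ring as Psmc1 to Psmc5, was at 5468 and 1267 in WT, 4537 and 1042 in the C54Y libraries, and 5795 and 765 in KO. The other 5 ATPase genes had replicate 2 above replicate 1 in all genotypes. What the replicate number stands for is not given in the sources used here.

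**Figure D5:**
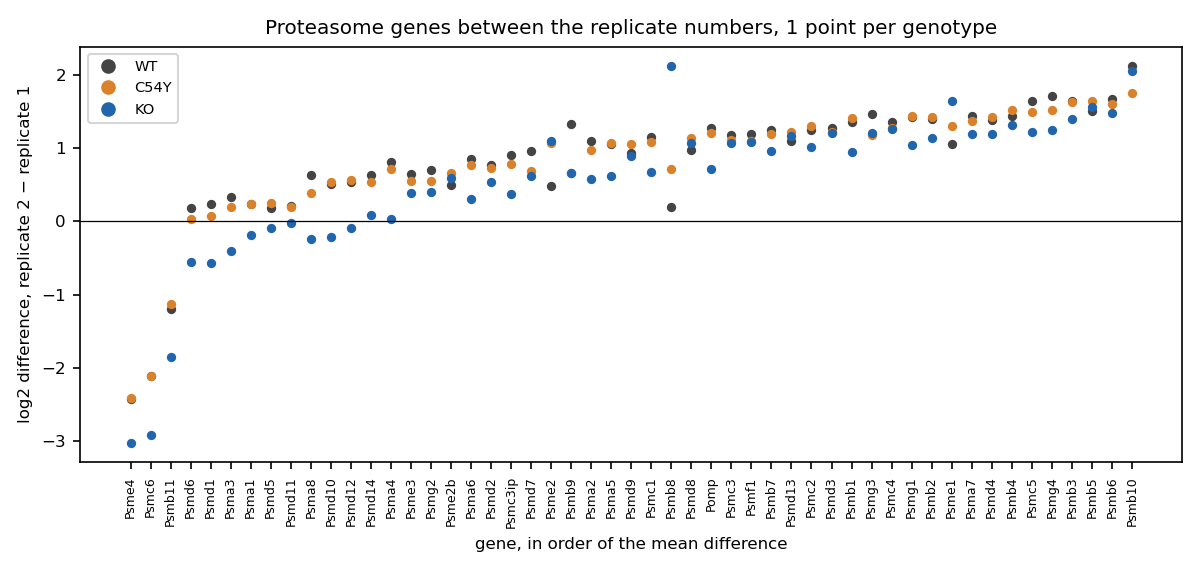
Log2 difference between replicate 2 and replicate 1 within each genotype for the 51 genes, ordered by the mean difference, with 1 point per genotype. Most genes lie above 0 in the 3 genotypes (39 of 51), while Psme4 and Psmc6 lie far below 0.

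Genes of the NRF1 pathway and related factors were examined as a list of 14 genes. In KO, 1 rose (8.9% of all tested genes were called higher) and 2 fell (7.41% lower), with a median log2 fold change of 0.23. Nfe2l1, which encodes NRF1, had values of 0.13 in C54Y (limma, adjusted p = 0.785) and 0.23 in KO (0.242). Ddi2, the protease that activates NRF1, had values of 0.16 in C54Y (limma, adjusted p = 0.848) and 0.51 in KO (0.106). Nfe2l2, which encodes the related factor NRF2, fell in KO by 0.49 (limma, adjusted p = 0.0451), and Nfe2l3 fell by 1.14 (0.0441). The Nfe2l3 value rests on few reads, 209 and 36 in WT and 103 and 12 in KO. Keap1, the adaptor that targets NRF2 for degradation, rose in KO by 0.57 (limma, adjusted p = 0.0366). In C54Y, 0 of the 14 passed by limma (1.36% of all tested genes), with 1 at an unadjusted p under 0.05 (12.3%). The C54Y median was 0.11.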

How the data were processed

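RNA of 6 libraries (WT, C54Y and KO, 2 each) was made into libraries with a TruSeq kit and sequenced, per the labels' protocols. The authors deposited a table of signal values, 1 per gene in each library, which are normalized counts. Per the submitters' processing notes, CASAVA, Trimmomatic, TopHat2 2.1.0, HTSeq, DESeq2 and build mm9 were used; the gene annotation, strand setting, filters and handling of multiply mapped reads are not given in the sources used here, so reads of overlapping or antisense genes cannot be told apart. Within a tolerance of 1e-06, 100% of the values were whole multiples of 1 step per column. Reads were taken back from these steps. Size factors computed from the reads by the median-ratio method, over genes with reads in every library, matched the steps.

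Of 19713 genes, 15287 with a value of 10 or more in 2 or more libraries entered limma 3.58.1 (robust trend, R 4.3.3) on log2 of the value plus 2, over all 6 libraries, with genotype and replicate number as terms and Benjamini-Hochberg adjustment over all tested genes at 0.05. Replicate number was a block because the comparison is within numbers; deviations of same-numbered libraries from their group means correlated at 0.907, 0.869 and 0.895, and nothing in the labels says what the number marks. edgeR 4.0.16 and DESeq2 1.42.0 on recovered reads, other pseudocounts, filters, scaling, omission of the block and of each library were alternatives. The fits were also run on simulated reads in which all genotypes shared the same replicate difference. That setting cannot show whether the block suits these libraries. Levels per kilobase and shared sequence used GENCODE M21, names and gene order RefSeq GRCm38.p6, which is not the build of the reads, and chromosomes were matched for 51 of 51 genes.

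Genes named are the catalytic, immune catalytic and Pomp genes, every proteasome gene past the threshold, the highest and lowest of each role group, and from other lists the leading genes past the threshold. Psmd7, Psmd14, Psmg4, Psme1, Psme2 and Psme4, where outside that rule, and the ratios to Psmb6 and Psmb7 were chosen after values were seen. The proteasome genes and all lists were chosen with earlier results of these data known. Lists are described by counts and medians, with no set test. No protein sequence was used here.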

Additional observations from a re-analysis of the deposited data

How the results depend on the processing

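No result changed sign for a called gene under the alternatives run. Pairing by replicate number decided the calls: without the replicate block, called genes went from 5 to 0 in KO and from 1 to 0 in C54Y by limma, edgeR and DESeq2 (0 in each), and Psmb5 gave −0.46 (adjusted p = 0.9999), −0.52 (edgeR, 1) and −0.45 (DESeq2, 1) in KO and −0.83 (1), −0.81 (edgeR, 1) and −0.79 (DESeq2, 0.9999) in C54Y. Fitting only the 2 genotypes compared, with the block, gave 4 calls in C54Y (11.4% of all tested genes), 2 in KO against C54Y (4.43%), Psmb5 in KO at −0.46 (adjusted p = 0.137) and relative Psmb5 in C54Y at −0.69 (0.000141). Psmb5 in KO also missed the threshold with no filter on low values (−0.46, adjusted p = 0.0591) and with DESeq2 with the block (−0.46, 0.0525), which called 2 genes in KO against C54Y. Centring on the core median gave relative Psmb5 in KO −0.63 (limma, adjusted p = 0.0237) and in C54Y −0.69 (0.0613). Leaving out 1 library at a time gave 2 to 24 called genes in KO (11.4% to 31.8% of all tested genes), 0 to 4 in C54Y (0.451% to 11.9%) and 0 to 23 in KO against C54Y (0.0458% to 18.5%). The same omissions gave Psmb5 −0.51 to −0.41 in KO and −0.88 to −0.77 in C54Y, relative Psmb5 −0.72 to −0.35 in KO and −0.85 to −0.53 in C54Y, and a median over the 51 genes of −0.16 to 0.016 in C54Y and −0.05 to 0.26 in KO. Both medians changed sign. With TMM scaling the KO median was 0.03 instead of 0.12. Why the calls moved was not tested. Depth limits the low genes most: Psmb8 in KO rests on 9 and 32 reads.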

Other observations

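Proteins that bind the proteasome without being named as subunits were measured as 15 genes. By limma, 0 of the 15 passed in KO (16.3% of all tested genes), with 2 at an unadjusted p under 0.05 (31.1%). In C54Y, 0 of the 15 passed (1.36%), with 1 at an unadjusted p under 0.05 (12.3%). The medians were 0.09 in KO and −0.06 in C54Y on the log2 scale. The ubiquitin receptor gene Adrm1 had a KO value of 0.36 (limma, adjusted p = 0.0829) and was at 4634 and 12379 in WT. Among 6 genes for ubiquitin and its activating enzymes, the X-linked gene Uba1 rose in KO by 0.79 ± 0.10 (limma, adjusted p = 0.00202), from 21876 and 36101 in WT to 37346 and 63532. In C54Y, 0 of these 6 passed by limma (1.36% of all tested genes), with 2 at an unadjusted p under 0.05 (12.3%). Uba6, the other ubiquitin-activating enzyme gene, shared the low replicate 2 values of Psme4 and Psmc6: it was at 2220 and 92.7 in WT, 2281 and 115.6 in the C54Y libraries, and 2545 and 67.5 in KO.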
